A study of Mus musculus with 24 samples.

Results

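The response of mouse muscle precursor cells to silencing of the transcription factors Tead1 and Tead4 was compared between primary myoblasts (PMs) and C2C12 cells at day 3 of differentiation. The comparison asked for which genes the change from control siRNA (siControl) to siRNAs against both factors (siTead1/4) differed in size or direction between the cell types. It contrasted the 8 libraries of day 3, 2 replicates for each of the 4 combinations of cell type and siRNA. The fit took in all 24 libraries of the series, which set the filter on low counts, the scaling and the spread. Of the 28109 genes listed, 16926 passed this filter. PMs were isolated from young C57/B6 mice and grown on a coated surface, whereas C2C12 is an established myoblast line that the labels assign to the C3H strain, so cell type and strain cannot be told apart. In siControl cells of both types the siRNA was directed against luciferase (siLuc in the labels), and in siTead1/4 cells pools of siRNAs were directed against Tead1 and Tead4. Both received the siRNA 24 hours before differentiation was started by a change to a medium low in serum, and no untransfected cells were sequenced.

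Tead factors bind the MCAT element of DNA and need cofactors such as Yap1, Wwtr1 (Taz) or the Vgll proteins to activate genes. The Hippo kinases hold Yap1 and Taz in the cytoplasm. In muscle, MCAT elements lie in the control regions of many contractile genes, and differentiating myoblasts leave the cell cycle, switch on Myog and Mef2c, fuse into myotubes and assemble sarcomeres.

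Levels are given as CPM, read counts divided by the scaled library size so that libraries of different depth can be compared. The siTead1/4 effect is the log2 fold change of siTead1/4 against siControl cells, and the difference is the PM effect minus the C2C12 effect, both on the log2 scale with the standard error (SE) of the fit. A gene was called at a Benjamini-Hochberg adjusted p under 0.05 in edgeR's quasi-likelihood test and an absolute value over 1. Where groups of 2 libraries are said not to overlap, this describes their levels, and its share over all tested genes was not counted. The total counts of the day 3 libraries lay between 37598491 and 51110723. The siTead1/4 replicates of C2C12 cells stood apart at day 3, since the SD of their log2 ratio over the tested genes was 0.732 against 0.437 to 0.518 in the other 3 groups. In replicate 1 of this group the summed level of 65 extracellular matrix genes was 61500 CPM against 30600 CPM in replicate 2. The counts of calls are therefore also given without each day 3 library.

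Both targeted genes were lower after silencing in each cell type. Tead4 stood at 194 and 197 CPM in siControl PMs and at 30.6 and 35.2 CPM in siTead1/4 PMs. In C2C12 cells it stood at 111 and 147 CPM in siControl and at 26.1 and 51.4 CPM in siTead1/4 cells. Tead4 fell in both, and 16.8% of the siControl mean was left in PMs and 30.1% in C2C12 cells. Tead1 went from 289 and 278 CPM to 99.7 and 78.0 CPM in PMs and from 95.6 and 151 CPM to 66.9 and 51.1 CPM in C2C12 cells, leaving 31.3% and 47.9%. Tead1 levels did not overlap between the siRNAs in either cell type, but its change was not called (adjusted p = 0.14 and 0.31 by edgeR). Neither gene's change differed detectably between the cell types, with differences of -0.84 (SE 0.41, adjusted p = 0.40) for Tead4 and -0.61 (SE 0.77, adjusted p = 0.83) for Tead1 by edgeR. Tead3 rose in PMs alone by the call, from 31.8 and 37.0 CPM to 60.6 and 93.8 CPM. Its difference from C2C12 cells was 0.73 (SE 0.31) and missed the threshold (edgeR adjusted p = 0.30). None of the 9 Tead genes and cofactors tested differed between the cell types by edgeR. Of these, 2 had an unadjusted p under 0.05 and DESeq2 called 0.

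The siTead1/4 effect was higher in PMs than in C2C12 cells for 172 genes, 1.02% of those tested, and lower in PMs for 40 genes, 0.236% of those tested. At an unadjusted p under 0.05 by edgeR, 1247 of the 16926 tested genes were higher and 958 lower, and DESeq2 called 354 and 140. The counts of these kinds given for gene lists below are to be read beside those over all genes. The 172 genes had a median effect of 0.85 in PMs and of -1.42 in C2C12 cells, and the 40 genes had medians of -0.69 and 1.22. Among the 172 genes, 82 fell in C2C12 cells and were not called in PMs, 50 rose in PMs and were not called in C2C12 cells, 7 did both, 2 fell in both but further in C2C12 cells, and 31 passed only the test of the difference. Among the 40 genes, 17 rose in C2C12 cells alone, 9 fell in PMs alone and 14 passed only the test of the difference. The 2 effects had opposite signs for 139 of the 172 genes and for 37 of the 40. These genes were selected for a difference over 1 in size, which by itself favours opposite signs and medians on either side of 0. An effect near 0 in 1 cell type is included by its sign, and the share over all tested genes was not counted.

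**Figure D1:**
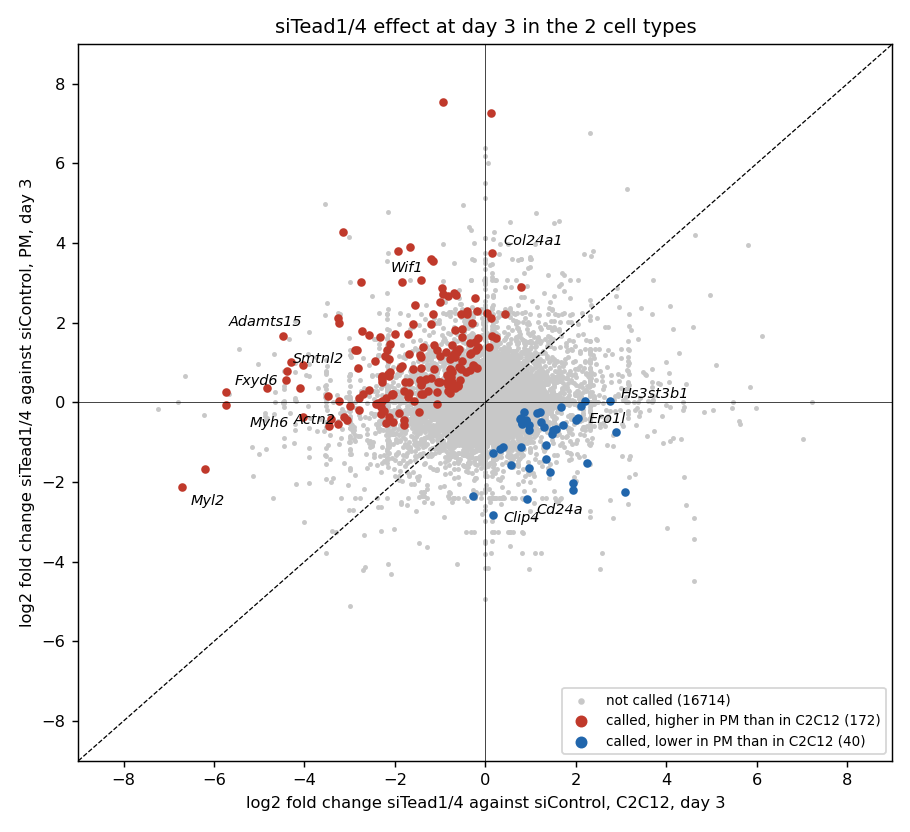
siTead1/4 effect at day 3 in C2C12 cells (x axis) and in PMs (y axis), both as log2 fold change of siTead1/4 against siControl, for 16926 genes; the dashed line marks equal effects. The 172 genes in red lie above the line and mostly in the upper left, and the 40 genes in blue lie below it and mostly in the lower right.

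The number of calls depended on single libraries. The counts of genes higher and lower were 36 and 11 without PM siControl replicate 1, 66 and 11 without PM siControl replicate 2, 73 and 5 without PM siTead1/4 replicate 1, and 83 and 13 without PM siTead1/4 replicate 2. They were 95 and 10 without C2C12 siControl replicate 1 and 60 and 8 without C2C12 siControl replicate 2. They rose to 287 and 355 without C2C12 siTead1/4 replicate 1, and were 142 and 40 without C2C12 siTead1/4 replicate 2. In each of these 8 fits, 162 of the 172 genes and 37 of the 40 kept their sign and a size over 1. The genes were selected at a size over 1 from these same libraries, so this is no independent check of the sizes. The call itself was kept in all 8 fits by 26 of the 172 genes and by 3 of the 40, namely Cd24a, Clip4 and Slc25a37.

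Over all tested genes, the fitted effects in the 2 cell types were weakly correlated. Their Pearson correlation was 0.101 across genes, from libraries that the cell types do not share (genes are not independent replicates, and no p is given). Most of these genes were not called, and spread between replicates lowers such a correlation, by an amount that was not tested. In PMs 205 genes rose (1.21% of those tested) and 107 fell (0.632%), and in C2C12 cells 256 rose (1.51%) and 434 fell (2.56%). Without 1 library the counts were 35 to 92 and 23 to 56 in PMs, the fewest without siControl replicate 1 (35 and 33) and siTead1/4 replicate 1 (88 and 23). In C2C12 cells they were 27 and 236 without siControl replicate 1, 22 and 183 without siControl replicate 2, 540 and 384 without siTead1/4 replicate 1 and 141 and 354 without siTead1/4 replicate 2. The 15 genes that rose in both were 7.32% of those of PMs and 5.86% of those of C2C12 cells, and the 33 that fell in both were 30.8% and 7.60%. A call in 1 cell type alone was seldom a tested difference. Of the 394 genes that fell in C2C12 cells without a call in PMs, 82 (20.8%) had a called difference and 269 had the same sign in PMs. For the 241 genes that rose in C2C12 cells alone this was 17 (7.05%), for the 183 that rose in PMs alone 50 (27.3%), and for the 74 that fell in PMs alone 9 (12.2%).

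Fxyd6, a small membrane protein that modulates the sodium pump (chromosome 9, 45178268 to 45204241, mm9), stood at 335 and 339 CPM in siControl and at 366 and 436 CPM in siTead1/4 PMs. In C2C12 cells it fell from 29.1 and 34.6 CPM to 0.212 and 0.949 CPM. Its difference was 5.99 (SE 0.65, edgeR adjusted p = 0.00039), and it was called without each of the 8 libraries. The siRNA groups were far apart in C2C12 cells and close to each other in PMs.

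Wif1, a secreted inhibitor that binds Wnt proteins (chromosome 10, 120471016 to 120537706, mm9), moved in opposite directions. It rose from 1.66 and 1.87 CPM to 12.8 and 15.8 CPM in PMs and fell from 4.88 and 4.98 CPM to 1.32 and 1.41 CPM in C2C12 cells. Replicates lay within a narrow range in each group, the groups did not overlap, and the difference was 4.86 (SE 0.51, edgeR adjusted p = 0.00053; 4.69 to 5.01 without 1 library). Rspo3, a secreted protein that raises Wnt signalling, rose in PMs from 0.0281 and 0.126 CPM to 0.858 and 1.59 CPM, and was at most 0.304 CPM in each C2C12 library (difference called by edgeR, kept in 3 of the 8 fits without 1 library). Both were among the 58 Wnt pathway genes tested, of which no other was called and the median difference was -0.02, against -0.01 over all genes.

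Col24a1, a fibrillar collagen (chromosome 3, 144955436 to 145214975, mm9), rose in PMs from 2.75 and 4.50 CPM to 46.1 and 52.4 CPM, and stood at 1.16, 1.48, 1.32 and 1.6 CPM in the C2C12 libraries. Its difference was 3.61 (SE 0.42, edgeR adjusted p = 0.00053). Adamts15, a secreted protease that cleaves proteoglycans, fell in C2C12 cells from 3.70 and 2.51 CPM to 0.132 and 0.139 CPM and had 1.09 and 6.29 CPM in siControl against 8.37 and 15.0 CPM in siTead1/4 PMs. Its difference of 6.14 had a wide SE of 1.19 (edgeR adjusted p = 0.018) and was called in 4 of the 8 fits without 1 library. The 64 extracellular matrix genes tested had none called by edgeR in either direction (10 at an unadjusted p under 0.05, 0 by DESeq2) and a median of -0.13, which was 0.47 without C2C12 siTead1/4 replicate 1 and -0.34 without replicate 2.

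Fras1, Frem1 and Frem2 are large matrix proteins that form a complex beneath epithelia, and Grip1 and Grip2 are scaffold proteins that bind Fras1 and other membrane proteins. Fras1 rose in PMs from 51.4 and 55.9 CPM to 214 and 137 CPM and fell in C2C12 cells from 10.2 and 19.0 CPM to 3.23 and 4.10 CPM (difference 3.70, SE 0.62, edgeR adjusted p = 0.0082; kept in 7 of the 8 fits without 1 library). Frem2 fell in C2C12 cells from 7.46 and 20.4 CPM to 1.64 and 0.880 CPM, with 78.1 and 112 CPM in siControl and 125 and 88.9 CPM in siTead1/4 PMs (difference 3.64, SE 0.67, edgeR adjusted p = 0.014; kept in 4). The groups of Frem2 overlapped in PMs and were apart in C2C12 cells. With Frem1 (difference 5.24) and Grip2 (2.64), 4 of the 5 tested genes of this complex were called higher, and Grip1 was not (0.11). This group was put together after its values were seen, and Frem3 was at 0 in each group.

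Cyp26b1, an enzyme that breaks down retinoic acid, fell in C2C12 cells from 4.55 and 12.3 CPM to 1.46 and 1.09 CPM, and went from 1.15 and 0.834 CPM to 3.52 and 3.31 CPM in PMs (difference 4.52, SE 0.65, edgeR adjusted p = 0.0029). Smtnl2, a smoothelin-like protein, fell in C2C12 cells from 1.44 and 3.10 CPM to 0.397 and 0.255 CPM and stood at 66.9 and 57.9 CPM in siControl and 124 and 101 CPM in siTead1/4 PMs (difference 3.66, SE 0.51, edgeR adjusted p = 0.0019). For both genes the siRNA groups were apart in each cell type, in opposite directions. The other genes with the largest positive differences were 9530026P05Rik (5.38), Wdr16 (4.15) and Upk1b (4.01), with levels of 0.0794 to 1.77 CPM, 0.476 to 10.0 CPM and 0.152 to 10.0 CPM over the day 3 libraries. Upk1b kept its call in 2 of the 8 fits without 1 library, and the others in 7 or 8.

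**Figure D2:**
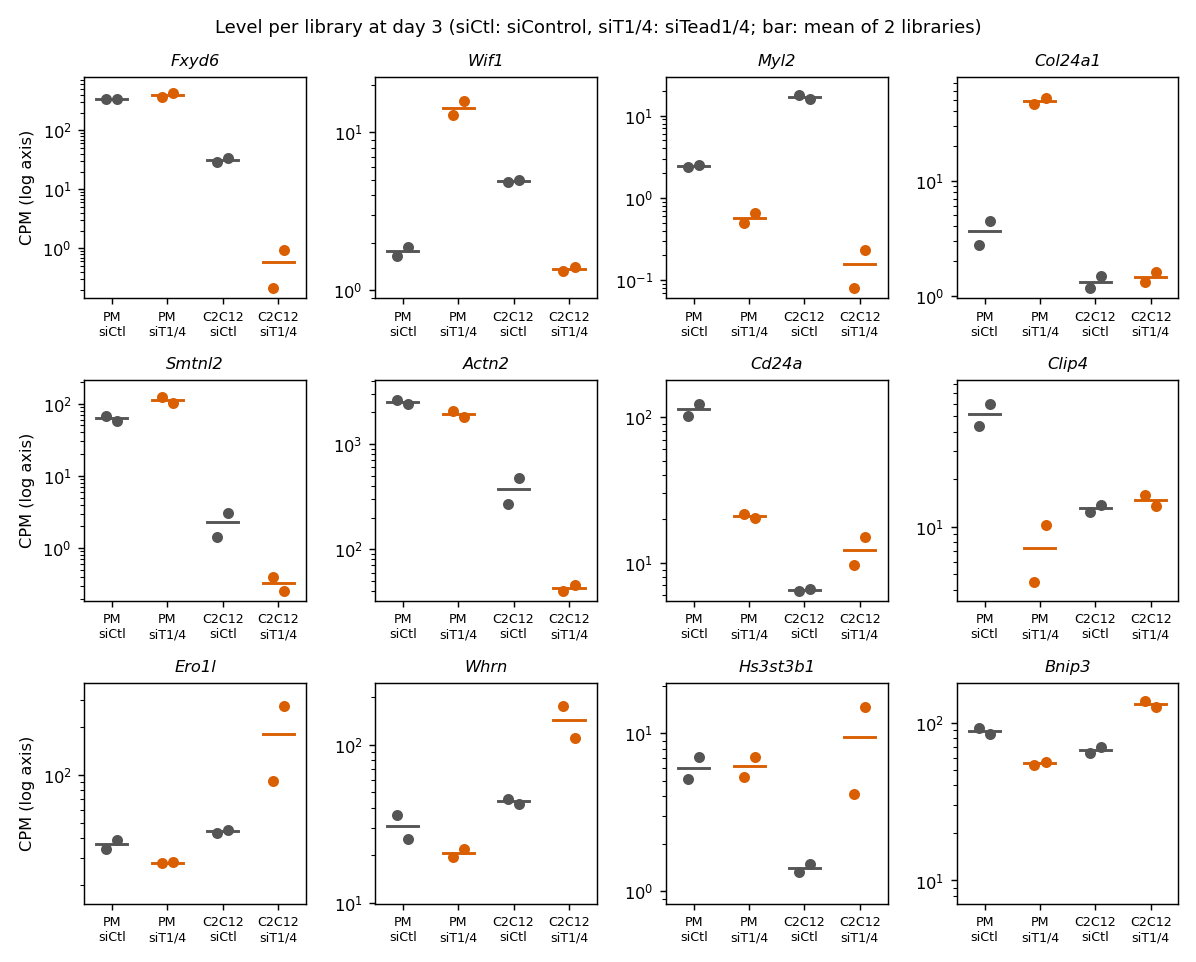
CPM (log axis) of 12 genes in each of the 8 libraries of day 3, grey for siControl and orange for siTead1/4, with a bar at the mean of 2 libraries. Fxyd6 and Actn2 are far lower in siTead1/4 than in siControl C2C12 cells, Col24a1 is higher and Cd24a lower in siTead1/4 PMs, and Ero1l and Hs3st3b1 are higher in both C2C12 siTead1/4 libraries, most in replicate 2.

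RefSeq promoter windows (GRCm38.p6, 250 bases before to 50 after a start site) were given for 8 of the 12 leading genes higher in PMs and for 5 of the 12 leading genes lower in PMs, 9 windows each. They were searched on both strands for CATTCC, the core of the MCAT element that Tead factors bind (GGAATG on the other strand, with no other motif searched). It was in 2 windows of the first set (Smtnl2 and Frem2) and in 1 of the second (Fez1), beside 14.7% of 32851 windows of the same length. The 3 windows are shown 5′ to 3′ with the core in capitals, since they are the ones that hold it. The core starts at base 123 of the window of Smtnl2 (chr11:72411664-72411963, minus strand), at base 51 of that of Frem2 (chr3:53657306-53657605, minus strand) and at base 160 of that of Fez1 (chr9:36821641-36821940, plus strand).
Smtnl2: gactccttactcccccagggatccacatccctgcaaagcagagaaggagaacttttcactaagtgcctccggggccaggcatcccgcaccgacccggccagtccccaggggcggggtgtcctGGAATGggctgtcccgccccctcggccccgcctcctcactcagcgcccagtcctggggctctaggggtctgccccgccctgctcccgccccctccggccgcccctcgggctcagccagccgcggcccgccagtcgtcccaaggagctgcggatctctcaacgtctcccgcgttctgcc
Frem2: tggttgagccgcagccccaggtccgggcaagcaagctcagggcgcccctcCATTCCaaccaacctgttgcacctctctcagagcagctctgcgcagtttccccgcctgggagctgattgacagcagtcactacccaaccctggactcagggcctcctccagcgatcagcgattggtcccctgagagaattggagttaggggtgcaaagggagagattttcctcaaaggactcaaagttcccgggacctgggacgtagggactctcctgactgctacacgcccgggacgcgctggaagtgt
Fez1: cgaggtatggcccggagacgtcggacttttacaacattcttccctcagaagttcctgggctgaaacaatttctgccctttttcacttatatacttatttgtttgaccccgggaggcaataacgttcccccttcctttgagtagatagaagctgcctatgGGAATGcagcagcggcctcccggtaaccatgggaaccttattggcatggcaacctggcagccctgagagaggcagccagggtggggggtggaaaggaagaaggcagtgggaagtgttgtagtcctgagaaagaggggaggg
Smtnl2 and Fez1 hold GGAATG and Frem2 holds CATTCC in the direction of the gene. A match of these letters is a description of the window and shows no binding.

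More genes of the contractile apparatus fell in C2C12 cells than in PMs, as was so over all tested genes (434, or 2.56%, against 107, or 0.632%). In bulk RNA, fewer differentiated cells and less of a transcript per cell cannot be told apart. The cell types also started from unlike levels. In siControl cells at day 0, Myog stood at 960 and 1040 CPM in PMs and at 9.68 and 2.91 CPM in C2C12 cells. Acta1, skeletal actin, stood at 2490 and 2160 CPM and at 36.0 and 8.48 CPM. The part of these starting levels in the day 3 differences was not tested. Of 33 thick filament and M-band genes tested, 15 fell in C2C12 cells and 4 in PMs, and none rose. The difference was above 0 for 30 of them, with a median of 1.21 against -0.01 over all genes (0.99 to 1.48 without 1 library). It was called for 3, namely Myl2, Myh6 and Mybph, by edgeR, and for 10 by DESeq2. The summed level of this list lay between 48600 and 62300 CPM in the PM libraries, at 21400 and 26100 CPM in siControl and at 7180 and 10500 CPM in siTead1/4 C2C12 cells.

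Myl2, the regulatory light chain of slow muscle and heart (chromosome 5, 122550960 to 122563481, mm9), fell in both cell types, from 2.41 and 2.53 CPM to 0.494 and 0.648 CPM in PMs and from 18.0 and 16.2 CPM to 0.0794 and 0.232 CPM in C2C12 cells. Its difference was 4.6 (SE 0.79, edgeR adjusted p = 0.0099). Myh6, a heart myosin heavy chain, fell in C2C12 cells from 68.2 and 87.8 CPM to 4.68 and 4.91 CPM and was at most 0.303 CPM in every PM library (difference 3.67). Myl2 and Myh6 each kept the call in 7 of the 8 fits without 1 library. The sequence of Myh6 is close to that of Myh7, so reads could be shared between them. Mybph, a myosin-binding protein, fell in C2C12 cells from 1650 and 1560 CPM to 284 and 489 CPM, with 1400 and 1320 CPM in siControl and 1510 and 1630 CPM in siTead1/4 PMs (difference 2.26, SE 0.51, edgeR adjusted p = 0.037; kept in 1 of the 8 fits without 1 library).

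The myosin heavy chains Myh1, Myh2, Myh4 and Myh7 gave no called difference, and did not move alike. Myh3, Myh8 and Myh7b fell in C2C12 cells and were not called in PMs. Their differences of 2.14, 3.69 and 2.41 missed the threshold (edgeR adjusted p = 0.051, 0.088 and 0.09). In C2C12 cells the mean of Myh3 went from 6630 to 1220 CPM and that of Myh8 from 477 to 16.5 CPM. Myh1 fell in PMs from 7460 and 7120 CPM to 1450 and 1470 CPM and went from 615 and 939 CPM to 242 and 359 CPM in C2C12 cells (difference -0.95, SE 0.60, edgeR adjusted p = 0.56). Myh2 fell in PMs from 25.3 and 42.9 CPM to 8.37 and 10.1 CPM, with 21.6 and 39.0 CPM against 7.94 and 13.2 CPM in C2C12 cells (difference -0.36). Myh7, the slow heavy chain, fell in both, from 33.4 and 44.9 CPM to 3.33 and 6.4 CPM in PMs and from 333 and 512 CPM to 26.1 and 26.3 CPM in C2C12 cells (difference 1.0, SE 0.65, edgeR adjusted p = 0.59). Ankrd2, a stretch-responsive Z-disc protein, also fell in both, with fold changes of -3.79 in PMs and -3.52 in C2C12 cells. For Myh1, Myh2, Myh7 and Ankrd2 the groups of 2 did not overlap in either cell type, though the changes of Myh1 and Myh2 were called in PMs alone. Myh4, the heavy chain of the fastest fibres, went the other way, with a mean of 2280 ± 423 CPM in siControl and 9290 ± 1500 CPM in siTead1/4 PMs (SD, n = 2). In C2C12 cells its means were 138 ± 116 CPM and 227 ± 75.1 CPM (SD, n = 2), and neither change nor the difference of 1.31 (SE 1.04) was called.

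Thin filament genes showed the same order. Of 26 tested, 10 fell in C2C12 cells and 1 in PMs, 24 had a difference above 0, and the median was 0.91 (0.66 to 1.22 without 1 library). Only Tmod1, which caps the slow-growing end of actin filaments, was called by edgeR (7 by DESeq2), and it lost its call in each of the 8 fits without 1 library. It fell in C2C12 cells from 89.4 and 119 CPM to 21.6 and 23.8 CPM, beside 393 and 286 CPM against 270 and 206 CPM in PMs (difference 1.69, SE 0.37, edgeR adjusted p = 0.035). Acta1, skeletal actin, was not called in either cell type (difference 0.76, SE 0.60). Tnni1, slow troponin I, fell in C2C12 cells from 2430 and 2220 CPM to 576 and 1220 CPM and went from 3220 and 3120 CPM to 1460 and 1700 CPM in PMs, with a difference of 0.37 that was not called (edgeR adjusted p = 0.85).

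Of 38 Z-disc and costamere genes, 17 fell in C2C12 cells and 4 in PMs, and the median difference was 0.54 (0.38 to 0.89 without 1 library). Actn2, the actinin that crosslinks actin at the Z-disc, was the called member. It fell in C2C12 cells from 270 and 474 CPM to 39.8 and 45.3 CPM, with 2640 and 2390 CPM against 2070 and 1830 CPM in PMs (difference 2.76, SE 0.55, edgeR adjusted p = 0.020). Groups were apart in each cell type, more widely in C2C12 cells, and the call was kept in 3 of the 8 fits without 1 library.

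Of 33 genes of excitation-contraction coupling, 11 fell in C2C12 cells and none in PMs, and the median difference was 0.72 (0.49 to 1.10 without 1 library). Casq1, the calcium store of the sarcoplasmic reticulum, fell in C2C12 cells from 124 and 161 CPM to 30.1 and 23.5 CPM and stood at 1460 and 1280 CPM in siControl and 1290 and 1370 CPM in siTead1/4 PMs (difference 2.37, SE 0.53, edgeR adjusted p = 0.037). Sypl2, a protein of the triad junction, fell in C2C12 cells from 4.11 and 5.57 CPM to 0.344 and 0.648 CPM and had 342 and 320 CPM against 238 and 216 CPM in PMs (difference 2.72). Cav3, the muscle caveolin, fell in C2C12 cells from 104 and 101 CPM to 21.7 and 47.2 CPM and went from 297 and 379 CPM to 149 and 252 CPM in PMs (difference 0.82, SE 0.50, edgeR adjusted p = 0.55). Casq1 levels overlapped between the siRNAs in PMs, whereas those of Sypl2 and Cav3 did not. Of the 8 fits without 1 library, Casq1 kept its call in 1 and Sypl2 in 2.

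Of 29 genes of muscle energy metabolism, 8 fell in C2C12 cells and none in PMs (median difference 0.67, 0.40 to 0.92 without 1 library). Ampd1, the muscle AMP deaminase, fell in C2C12 cells from 2.74 and 4.07 CPM to 0.741 and 0.810 CPM and had 130 and 102 CPM in siControl against 209 and 155 CPM in siTead1/4 PMs (difference 2.78, SE 0.50, edgeR adjusted p = 0.012). Pgam2, the muscle phosphoglycerate mutase, fell in C2C12 cells from 85.2 and 102 CPM to 18.6 and 31.6 CPM and had 882 and 674 CPM against 659 and 636 CPM in PMs (difference 1.64). Ampd1 kept its call in 5 of the 8 fits without 1 library and Pgam2 in 2. By contrast, the 57 respiratory chain genes had a median difference of 0.00 and lay close together, with 28 above 0 and none called by edgeR, by DESeq2 or at an unadjusted p under 0.05.

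**Figure D3:**
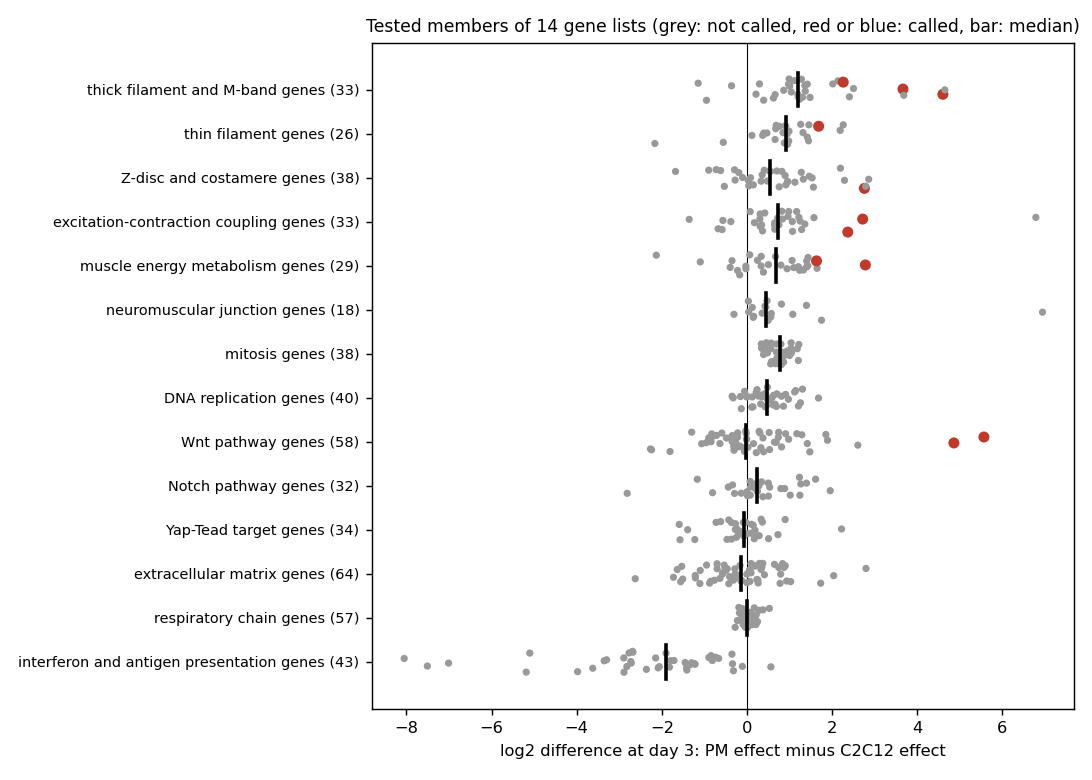
Difference at day 3 (PM effect minus C2C12 effect, log2) of each tested member of 14 gene lists, with the number tested in brackets; grey points were not called, red points were called higher in PMs, and the bar is the median. The 5 contractile and energy lists at the top have medians of 0.54 to 1.21, respiratory chain genes lie around 0, and interferon genes are spread to the left with a median of -1.90.

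Myogenic regulators held no called difference. Of 25 myogenic transcription factors none was called by edgeR (4 higher and 0 lower at an unadjusted p under 0.05, 2 by DESeq2), and the median was 0.09. Myod1, the factor that commits cells to muscle, stood at 408 and 464 CPM against 369 and 441 CPM in PMs and at 173 and 174 CPM against 154 and 147 CPM in C2C12 cells. Myog, which drives terminal differentiation, went from 986 and 1170 CPM to 674 and 842 CPM and from 1150 and 1120 CPM to 491 and 876 CPM, and its change was not called in either (difference 0.23, SE 0.64). Mef2c, a partner of these factors, fell in C2C12 cells from 351 and 548 CPM to 126 and 187 CPM and had 1350 and 1480 CPM against 1310 and 1200 CPM in PMs, but its difference of 1.34 missed the threshold (SE 0.41, edgeR adjusted p = 0.13).

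A pair of other regulators, outside the lists and picked after their values were seen, kept their calls in all 8 fits without 1 library. Lbx1, a homeobox factor of migrating muscle precursors, fell in C2C12 cells from 1.53 and 1.11 CPM to 0.291 and 0.0926 CPM and stood at 54.6 and 58.9 CPM against 52.1 and 70.0 CPM in PMs (difference 2.90, SE 0.47, edgeR adjusted p = 0.0067). Hdac9, a deacetylase that represses Mef2 factors, fell in C2C12 cells from 32.5 and 25.1 CPM to 6.54 and 5.30 CPM and had 16.0 and 20.6 CPM against 31.1 and 25.5 CPM in PMs (difference 2.91, SE 0.36, edgeR adjusted p = 0.0009).

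Of 27 myoblast fusion genes only Jam3, an adhesion molecule, was called (difference 1.04, SE 0.21, edgeR adjusted p = 0.021; kept in 2 of the 8 fits without 1 library), with 96.2 and 113 CPM against 118 and 131 CPM in PMs and 36.9 and 41.0 CPM against 23.6 and 21.4 CPM in C2C12 cells. The fusion genes had a median of -0.02, and the 18 neuromuscular junction genes 0.46, with none called by edgeR or DESeq2 and 5 higher at an unadjusted p under 0.05.

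Some of the 40 genes with a lower effect in PMs fell in PMs and others rose in C2C12 cells, while 14 were called in neither. Cd24a, a small surface glycoprotein (chromosome 10, 43298975 to 43304068, mm9), fell in PMs from 102 and 124 CPM to 21.6 and 20.4 CPM and stood at 6.37 and 6.62 CPM in siControl and at 9.66 and 15.0 CPM in siTead1/4 C2C12 cells. Its difference was -3.35 (SE 0.49, edgeR adjusted p = 0.0029). Clip4, a member of the family of microtubule tip proteins, fell in PMs from 43.5 and 59.7 CPM to 4.48 and 10.2 CPM and stood at 12.4, 13.8, 16.0 and 13.5 CPM in the C2C12 libraries (difference -2.98, SE 0.43, edgeR adjusted p = 0.0029). For both, the siRNA groups of PMs were far apart.

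Whrn, a scaffold protein known from the stereocilia of hair cells, rose in C2C12 cells from 45.7 and 42.4 CPM to 177 and 111 CPM and had 36.0 and 25.5 CPM against 19.6 and 21.9 CPM in PMs (difference -2.28, SE 0.45, edgeR adjusted p = 0.019; kept in 3 of the 8 fits). Hs3st3b1, an enzyme that sulfates heparan chains, rose in C2C12 cells from 1.32 and 1.5 CPM to 4.15 and 14.8 CPM, with 5.11 and 7.05 CPM against 5.32 and 7.10 CPM in PMs (difference -2.72, SE 0.59, edgeR adjusted p = 0.031). The C2C12 siTead1/4 replicates of Hs3st3b1 differed widely from each other, and its difference was -1.51 without replicate 2, its call being kept in 1 of the 8 fits. The remaining genes with the largest negative differences were Gm15676 (-3.77), Dchs1 (-3.18), Clmn (-2.76), Rgnef (-2.46), Tmem56 (-2.41), Gpr64 (-2.26) and Fez1 (-2.23), and of these Gm15676 kept its call in 7 of the 8 fits and each of the others in 1.

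Several of the 40 genes lower in PMs encode proteins of glucose use or proteins that cells make under low oxygen. Ero1l, an oxidase of the endoplasmic reticulum, rose in C2C12 cells from 43.0 and 44.9 CPM to 91.1 and 273 CPM and had 34.1 and 38.6 CPM against 27.7 and 28.1 CPM in PMs (difference -2.44, SE 0.46, edgeR adjusted p = 0.015; kept in 2 of the 8 fits, and -1.43 without C2C12 siTead1/4 replicate 2). Bnip3, a mitochondrial protein of mitophagy, had 92.9 and 84.6 CPM against 53.6 and 56.5 CPM in PMs and 64.2 and 70.3 CPM against 136 and 126 CPM in C2C12 cells (difference -1.65, SE 0.28, edgeR adjusted p = 0.0082). Its groups did not overlap in either cell type, in opposite directions, and it kept its call in 7 of the 8 fits.

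The glucose transporter gene Slc2a1 rose in C2C12 cells from 69.0 and 73.0 CPM to 127 and 207 CPM, beside 32.9 and 41.0 CPM against 22.9 and 29.5 CPM in PMs (difference -1.73). Pdk1, a kinase that closes the entry of pyruvate into mitochondria, fell in PMs from 55.5 and 46.8 CPM to 25 and 20.4 CPM, with 65.7 and 84.6 CPM against 110 and 78.7 CPM in C2C12 cells (difference -1.5). Vegfa, the vascular growth factor, had 94.0 and 101 CPM against 68.1 and 68.3 CPM in PMs and 187 and 129 CPM against 238 and 319 CPM in C2C12 cells (difference -1.33, SE 0.29, edgeR adjusted p = 0.033). Of the 8 fits without 1 library, Vegfa kept its call in 2, and Slc2a1 and Pdk1 in 1 each. A list of 36 glycolysis and oxygen-regulated genes, drawn up after these values were seen, had 5 called lower and 0 called higher by edgeR. At an unadjusted p under 0.05 by edgeR, 12 were lower and 2 higher, and DESeq2 called 8 and 0. The difference was above 0 for 5 genes, and the median was -0.50. The 5 genes called by edgeR are those that led to the list, so it is not independent of them. Pgam2, a glycolytic enzyme given above, was not in this list and was called in the other direction (1.64). C2C12 siTead1/4 replicate 2 was higher than replicate 1 for Ero1l, Slc2a1 and Vegfa and lower for Bnip3 and Pdk1.

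Interferon and antigen presentation genes had the lowest median of the 25 lists, -1.90 over 43 tested genes, with 42 below 0 or at 0 and 1 above. None was called by edgeR in either direction, whereas 22 were lower at an unadjusted p under 0.05 and DESeq2 called 6. Over all 16926 tested genes, 958 were lower at an unadjusted p under 0.05 by edgeR. Ifi44, an interferon-induced gene named after its values were seen, was at a mean of 8.37 CPM in siControl and 1.13 CPM in siTead1/4 PMs and at 0.106 and 2.69 CPM in C2C12 cells. The siControl PMs themselves disagreed, with a summed level of the list of 502 CPM in replicate 1 and 1100 CPM in replicate 2, beside 415 and 600 CPM in siTead1/4 PMs. In C2C12 cells it was 843 and 733 CPM in siControl and 913 and 877 CPM in siTead1/4 cells. Without PM siControl replicate 2 the median was -0.62, and without PM siTead1/4 replicate 2 it was -2.71. Among single genes with an antiviral role, Isg20 (-2.19) and Zc3hav1 (-1.90) were called, in 1 and 2 of the 8 fits without 1 library, and were picked after their values were seen. Zc3hav1 rose in C2C12 cells from 46.4 and 54.2 CPM to 73.6 and 172 CPM.

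All 38 mitosis genes tested had a difference above 0 at day 3, with a median of 0.78 (0.57 to 0.98 without 1 library) and with none called by edgeR or DESeq2 or past an unadjusted p of 0.05. Their summed level was 511 and 581 CPM in siControl and 654 and 590 CPM in siTead1/4 PMs, against 727 and 717 CPM in siControl and 570 and 452 CPM in siTead1/4 C2C12 cells. Of 40 DNA replication genes, 34 had a difference above 0 (median 0.46), with none called by edgeR, 2 at an unadjusted p under 0.05 and 1 called by DESeq2. The members of such lists move together in a library and are not independent.

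Cdk2, the kinase that acts at the entry into S phase, and Rb1, the retinoblastoma protein that holds it back, were the called members among 16 D cyclins and Cdk inhibitors. Cdk2 had 46.1 and 50 CPM against 59.7 and 58.3 CPM in PMs and 101 and 91.1 CPM against 51.9 and 57.0 CPM in C2C12 cells (difference 1.12, SE 0.19, edgeR adjusted p = 0.0082; kept in 7 of the 8 fits). Rb1 had 162 and 162 CPM against 236 and 198 CPM in PMs and 199 and 225 CPM against 111 and 143 CPM in C2C12 cells (difference 1.17, SE 0.23, edgeR adjusted p = 0.020; kept in 3). Both were apart between the siRNAs in each cell type, in opposite directions. Ccnd1, cyclin D1, rose in both cell types, by 1.10 in PMs and by 1.36 in C2C12 cells (difference -0.26, SE 0.40). E2f8, a repressor of the cell cycle, fell in C2C12 cells from 48.5 and 52.6 CPM to 23.7 and 13.5 CPM with 31.3 and 39.1 CPM against 37.3 and 45.7 CPM in PMs (difference 1.68, SE 0.48, edgeR adjusted p = 0.11), and Chek2, a checkpoint kinase, had a difference of 0.32.

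Among 25 Hippo kinases and scaffolds, 1 was called in each direction. Rassf2, a scaffold that binds the Mst kinases, rose in PMs from 4.32 and 7.96 CPM to 18.1 and 21.3 CPM and stood at 24.9, 28.6, 28.9 and 30.0 CPM in the C2C12 libraries (difference 1.54, SE 0.31, edgeR adjusted p = 0.019; kept in 5 of the 8 fits without 1 library). Dchs1, a large cadherin that binds Fat4, had 5.72 and 7.51 CPM against 1.76 and 2.17 CPM in PMs and 1.65 and 1.98 CPM against 7.75 and 2.06 CPM in C2C12 cells (difference -3.18, SE 0.74, edgeR adjusted p = 0.044). The C2C12 change of Dchs1 rested on siTead1/4 replicate 1, without which the difference was -1.94, and its call was kept in 1 of the 8 fits. The 34 Yap-Tead target genes had a median of -0.08 and none called by edgeR (3 at an unadjusted p under 0.05, 2 by DESeq2). Ctgf, a classic target of Yap and Tead, varied more between replicates than between siRNAs, from 64.1 to 332 CPM in siControl and from 28.3 to 252 CPM in siTead1/4 C2C12 cells.

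None of the 32 Notch pathway genes was called (5 higher and 2 lower at an unadjusted p under 0.05 by edgeR, 0 and 1 by DESeq2), and the median was 0.25. Notch1 fell in C2C12 cells from 51.8 and 69.3 CPM to 28.7 and 27.7 CPM and had 43.3 and 71.5 CPM against 55.8 and 69.9 CPM in PMs (difference 1.23, SE 0.44, edgeR adjusted p = 0.21). Notch3 (difference 1.24), the ligand gene Dll1 (-0.34) and the target gene Hey1 (1.40) were not called in either cell type. Hey2, another target, rose in C2C12 cells from 0.0472 and 0.0405 CPM to 0.132 and 0.926 CPM, a level that rests on 1 library, and its difference of -2.81 was not called. Nkd1, an inhibitor of Wnt signalling, was at 1.18 and 1.77 CPM against 4.98 and 7.10 CPM in PMs and at 3 counts or fewer in each C2C12 library but 1, so no difference is given.

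Neuronal genes were called in 1 direction, with 3 of 60 higher and 0 lower by edgeR (10 and 5 at an unadjusted p under 0.05, 5 and 0 by DESeq2) and a median of 0.30. Nefm, the medium neurofilament chain, fell in C2C12 cells from 1.72 and 1.88 CPM to 0.370 and 0.463 CPM and had 0.393 and 0.480 CPM against 0.837 and 0.648 CPM in PMs (difference 2.86, SE 0.49, edgeR adjusted p = 0.0082). Nefl, the light chain, fell in C2C12 cells from 1.04 and 1.6 CPM to 0.132 and 0.0232 CPM and was at most 0.112 CPM in each PM library. Mapt, the microtubule protein tau, rose in PMs from 2.97 and 3.74 CPM to 6.76 and 9.77 CPM, with 12.0 and 12.2 CPM against 5.53 and 9.84 CPM in C2C12 cells (difference 1.95). Among 25 chemokine and cytokine genes only Il15, a cytokine that muscle makes, was called. It rose in PMs from 0.449 and 0.607 CPM to 2.55 and 2.37 CPM and had 2.69 and 2.75 CPM against 1.40 and 2.66 CPM in C2C12 cells (difference 2.63, SE 0.59, edgeR adjusted p = 0.036). Of the 8 fits without 1 library, Nefm kept its call in 7, and Nefl, Mapt and Il15 in 1 each.

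The X-linked Tceal genes, which resemble a transcription elongation factor, had 4 of 6 members called higher. This family was picked after its values were seen. Tceal7 rose in PMs from 93.1 and 104 CPM to 488 and 427 CPM and had 43.2 and 56.7 CPM against 38.7 and 30.4 CPM in C2C12 cells (difference 2.75, SE 0.49, edgeR adjusted p = 0.012). Tceal5 fell in C2C12 cells from 3.23 and 4.03 CPM to 0.847 and 0.787 CPM and had 32.0 and 24.2 CPM against 46.1 and 45.8 CPM in PMs (difference 2.86, SE 0.34, edgeR adjusted p = 0.00064). Tceal3 (3.38) and Tceal1 (1.37) were the others. Tceal5 kept its call in all 8 fits without 1 library, Tceal7 and Tceal3 in 5 and Tceal1 in 1. Members of this family are related in sequence, so reads could be shared between the closest of them, which was not tested.

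Some called genes were below 1 CPM in both siRNA groups of 1 cell type, 18 of the 172 in PMs and 28 in C2C12 cells, and 2 and 4 of the 40. Their fitted differences, including those given above for Myh6, Nefm, Frem1, Rspo3 and Tceal3, rest on few reads in that cell type. Up to 4 in each direction, those with the largest fitted difference, are given here by level. Itih3, an inhibitor chain of the matrix, had no counts in siControl PMs, 0.730 and 0.423 CPM in siTead1/4 PMs and at most 0.121 CPM in C2C12 cells. Fut9, a fucosyltransferase, had no counts in siControl PMs, 0.665 and 0.274 CPM in siTead1/4 PMs and 0.519 to 0.870 CPM in C2C12 cells. Pof1b and Cldn21 were the others named with a higher effect in PMs, and Pof1b was at 0.0644 CPM or less in each PM library. With a lower effect in PMs, Ddx60, an antiviral helicase, had 1.23 and 8.11 CPM in siControl PMs against 0.601 and 1.44 CPM in siTead1/4 PMs. Fibcd1, Dgkg and Cdh3, a cadherin, were the others named, and each had its highest C2C12 level in siTead1/4 replicate 2 (1.69, 1.09 and 0.996 CPM).

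The remaining lists held few or no called genes. Vegfa was the called member among 43 angiogenic and growth factor genes, whose median was 0.08. The 54 Tgfb and BMP pathway genes (median -0.06), the 27 adipogenic genes (-0.18) and the 20 immediate early genes (0.29) had none called by edgeR, while 9, 5 and 2 had an unadjusted p under 0.05 and DESeq2 called 1, 3 and 0. The chemokine and cytokine list had a median of -0.28.

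The same difference was tested at day 6 and at day 0, between libraries that the day 3 difference does not contrast. All 24 libraries shared 1 fit, so the tests of the 3 days have their estimate of spread in common. At day 6, 5 genes were higher (0.0295% of those tested) and 1 was lower (0.00591%), and at day 0, 1 gene was higher (0.00591%) and 0 were lower (0%) by edgeR, beside 329 lower at an unadjusted p under 0.05 and 17 called lower by DESeq2. The 5 genes of day 6 were Fxyd6 (5.30), Myl2 (4.84), 9530026P05Rik (4.30), Cyp26b1 (3.99) and Tceal5 (2.12), each of which was also among the 172 of day 3. Nos1, the neuronal nitric oxide synthase, was the lower gene of day 6 (-5.24), and at day 3 it had a difference of -3.26 that was not called (edgeR adjusted p = 0.077). Nefm was the gene of day 0 (2.83). Nos1 is named after its value was seen. Without 1 library the counts higher and lower lay at 1 to 17 and 0 to 4 at day 6, with the most calls without C2C12 siTead1/4 replicate 2. At day 0 they lay at 0 to 47 and 0 to 30, with the most calls without C2C12 siTead1/4 replicate 1.

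Most of the genes called at day 3 kept the sign of their difference at day 6. This held for 169 of the 172 (98.3%) and for 37 of the 40 (92.5%), where 50% and 49.9% of all tested genes had these signs. Of these, 93 of the 172 and 15 of the 40 were also beyond 1 in size. At day 0, 24 hours after transfection, the same sign was found in 62.2% and 45.0%, beside 48.1% and 51.8% of all tested genes. The share of all tested genes that kept their own day 3 sign was not counted. Over all tested genes, the Pearson correlation with the day 3 difference was 0.346 at day 6 and 0.082 at day 0. Cd24a turned round between day 3 and day 6, from -3.35 to a difference of 1.91 that was not called.

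**Figure D4:**
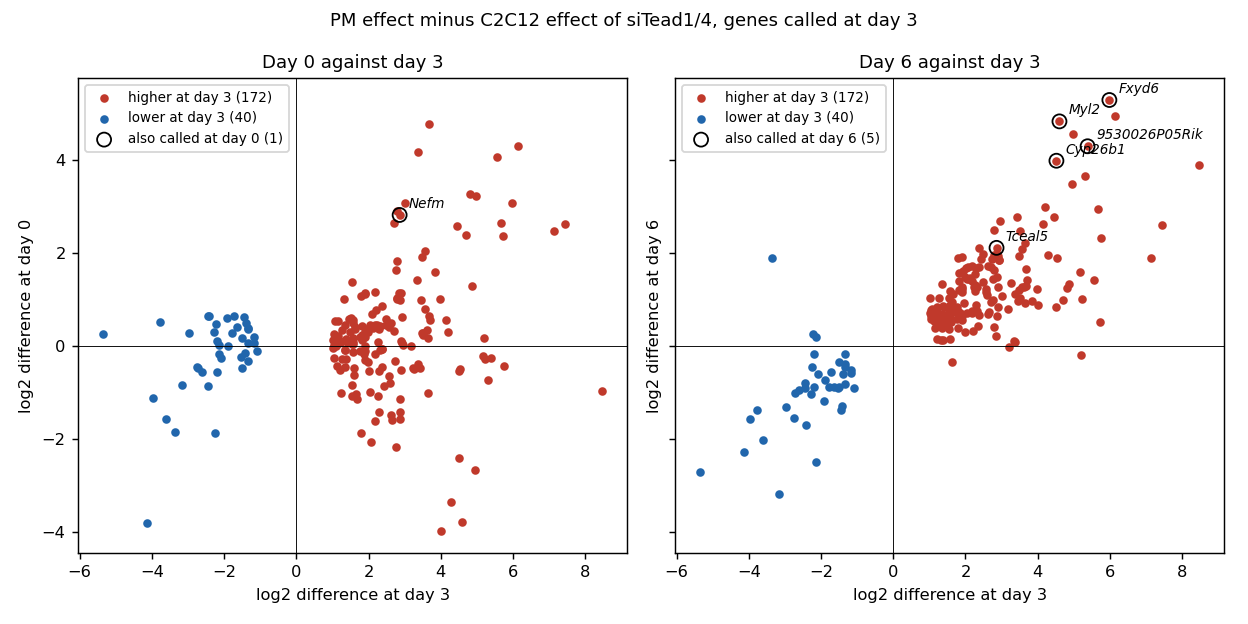
Difference (PM effect minus C2C12 effect, log2) at day 0 (left) and day 6 (right) against that at day 3, for the 172 genes in red and the 40 in blue; circles mark genes also called on the other day. At day 6, 169 of the red points are above 0 and 37 of the blue points below it, and at day 0 both colours spread to either side of 0.

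The gene lists followed different courses. The median difference of thick filament genes was -0.13 at day 0, 1.21 at day 3 and 0.57 at day 6, and that of thin filament genes was -0.25, 0.91 and 0.50. Mitosis genes went from -0.27 at day 0 to 0.78 at day 3 and -0.51 at day 6, when none of the 38 was above 0, and DNA replication genes from -0.25 to 0.46 and -0.43. Contractile lists thus kept their sign from day 3 to day 6 and cell cycle lists did not. Interferon genes had medians of -0.17, -1.90 and -0.83, and extracellular matrix genes of 0.12, -0.13 and -0.46.

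**Figure D5:**
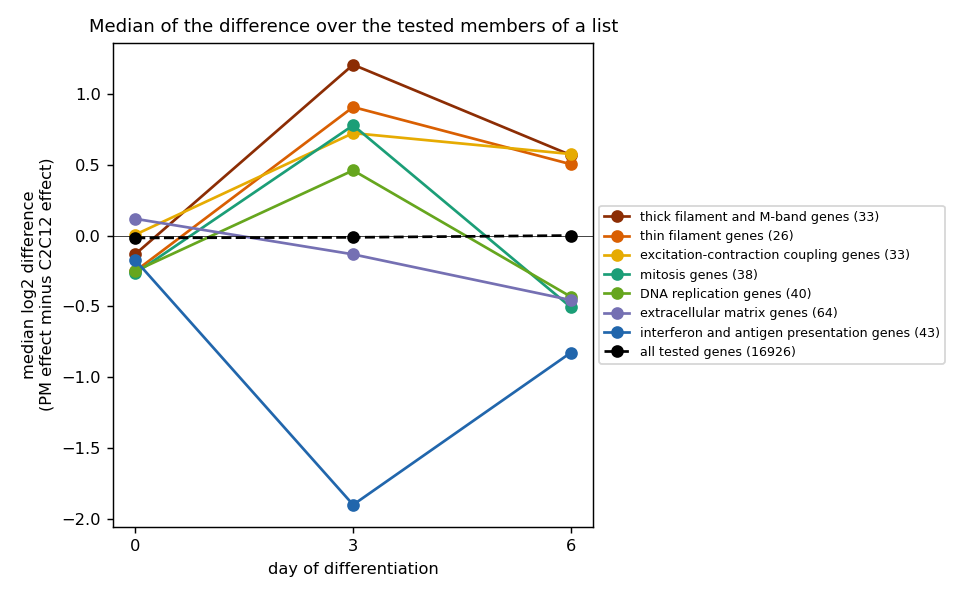
Median difference (PM effect minus C2C12 effect, log2) over the tested members of 7 lists and over all genes, at day 0, 3 and 6, with the number of genes in brackets; lines join the days. Thick filament genes peak at 1.21 at day 3, mitosis genes are below 0, above 0 and below 0 again, and the median of all genes stays near 0.

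Markers of other cell types were read beside these results. Myogenic markers summed to 8820 to 11100 CPM in the PM libraries and to 3790 to 6950 CPM in the C2C12 libraries, and none of the 8 differed by edgeR (1 at an unadjusted p under 0.05, 1 by DESeq2). Fibroblast markers summed to 101 to 133 CPM in PMs, and to 460 and 225 CPM in siControl and 147 and 93.5 CPM in siTead1/4 C2C12 cells, where Dcn and Ly6a fell (2 of the 10 tested). Smooth muscle and pericyte markers summed to 5040 CPM in C2C12 siTead1/4 replicate 1 and 2530 CPM in replicate 2, with 2010 to 2450 CPM in PMs and 4050 and 3750 CPM in siControl C2C12 cells. Endothelial markers summed to 10.8 to 33.8 CPM in PMs and 2.26 to 4.79 CPM in C2C12 cells, and adipocyte markers to 5.34 CPM or less. Schwann cell markers summed to 292 to 398 CPM in PMs and 253 to 510 CPM in C2C12 cells, most of it Erbb3, Pmp22 and Egr2, with Sox10 and Cdh19 at 0 in each C2C12 library. The part of fibroblast and smooth muscle markers in the results was not tested. Of the macrophage markers, which summed to 5.16 to 14.8 CPM, Itgam was called (difference 2.93, edgeR adjusted p = 0.021; kept in 4 of the 8 fits; 1 of 6 tested), while Emr1 and C1qa were at 0 in each of the 8 libraries and Ptprc in each PM library. In no marker list other than that of macrophages was a difference called by edgeR.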

How the data were processed

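Polyadenylated RNA was sequenced without keeping the strand. Per the submitters' processing notes the tools were CASAVA 1.8.2, TopHat2 2.0.10, Bowtie2 2.1.0, HTSeq 0.6.1 and DESeq2 1.8.1, with mm9. The authors deposited 1 table with raw read counts per gene. The raw counts of 24 libraries were used, and 84 other columns of per-sample values (normalized values, and 12 libraries not listed) were not.

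Counts were fitted in R 4.3.3 with edgeR 4.0.16 (filterByExpr, TMM, glmQLFit and glmQLFTest), with 1 mean for each of 12 groups, so that all groups share the spread. The day 3 difference is the contrast of the PM and C2C12 effects. SEs were derived from the test statistic. CPM were computed on TMM library sizes. The fit was tested on simulated data. With 2 replicates a group, p-values measure the spread between these samples, taken as shared by the 12 groups. At day 3 the replicates did not spread alike, with an SD of 0.732 in siTead1/4 C2C12 cells and 0.437 to 0.518 in the other groups. Depth was 25453830 to 52784510 counts. Alternatives were other scalings, filters, DESeq2 1.42.0, a replicate block, the libraries of 1 day, no fold limit and leaving out each library.

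Named genes were the Tead genes and cofactors, the 12 largest called differences in each direction (sign and size over 1 kept in 8 fits without 1 library, mean of at least 1 CPM in the higher siRNA group of each cell type), up to 4 called members of each of 25 pathway and 7 marker lists, genes the study discusses, and up to 4 called genes per direction under 1 CPM in 1 cell type. The comparison, genes and lists were chosen with earlier results of these data known. The replicate numbers are not labelled as a batch. Replicate differences of siControl and siTead1/4 libraries correlated at 0.377 to 0.503 in PMs and at -0.13 to 0.468 in C2C12 cells (0.0896 at day 3), so that all 3 days of PMs but not all of C2C12 cells were over 0.1, and the numbers were not taken to pair the samples across the comparison.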

Additional observations from a re-analysis of the deposited data

Results flagged for a closer look

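The siTead1/4 effect differed between PMs and C2C12 cells by a test of the difference itself for 172 genes higher and 40 lower at day 3, for 5 higher and 1 lower at day 6 and for 1 higher at day 0. The values in brackets are log2 differences at day 3 (PM effect minus C2C12 effect) of the named genes among them.

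Among the genes with a higher effect in PMs, the values were those of Adamts15 (6.14), Fxyd6 (5.99), Cldn21 (5.76), Rspo3 (5.57), 9530026P05Rik (5.38), Frem1 (5.24), Wif1 (4.86), Myl2 (4.6), Cyp26b1 (4.52), Nefl (4.46), Wdr16 (4.15), Upk1b (4.01), Fras1 (3.70) and Myh6 (3.67). Next came Smtnl2 (3.66), Frem2 (3.64), Col24a1 (3.61), Tceal3 (3.38), Itgam (2.93), Hdac9 (2.91), Lbx1 (2.90), Nefm (2.86), Tceal5 (2.86), Ampd1 (2.78), Actn2 (2.76), Tceal7 (2.75), Sypl2 (2.72), Il15 (2.63), Casq1 (2.37), Mybph (2.26) and Mapt (1.95). The others were Tmod1 (1.69), Pgam2 (1.64), Rassf2 (1.54), Tceal1 (1.37), Rb1 (1.17), Cdk2 (1.12) and Jam3 (1.04).

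Among the genes with a lower effect in PMs they were those of Fibcd1 (-5.35), Ddx60 (-4.14), Dgkg (-3.97), Gm15676 (-3.77), Cdh3 (-3.62), Cd24a (-3.35), Dchs1 (-3.18), Clip4 (-2.98), Clmn (-2.76), Hs3st3b1 (-2.72), Rgnef (-2.46), Ero1l (-2.44), Tmem56 (-2.41), Whrn (-2.28), Gpr64 (-2.26), Fez1 (-2.23), Isg20 (-2.19), Zc3hav1 (-1.90), Slc2a1 (-1.73), Bnip3 (-1.65), Pdk1 (-1.5) and Vegfa (-1.33). Itih3, Pof1b and Fut9 had no counts in siControl PMs, so their fitted values (8.48, 7.43 and 7.13) depend on the prior count and are no measure of size. The values of Cldn21, Rspo3, Frem1, Nefl, Myh6, Tceal3, Nefm, Fibcd1, Ddx60, Dgkg and Cdh3 rest on few reads in 1 cell type. Both siRNA groups of that cell type had a mean below 1 CPM. Groups of 2 libraries are too small to look for a library far from its group.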

How the results depend on the processing

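Counts are given as genes higher and lower. For the day 3 difference, 172 and 40, they were 537 and 316 with no filter on low counts, 88 and 27 with at least 10 counts in every library, 354 and 140 with DESeq2 and 108 and 14 with the libraries of day 3 alone. For the effect in PMs, 205 and 107, they were 394 and 247, 82 and 54, 264 and 160 and 92 and 75 in that order, and 264 and 169 with no fold limit. For the effect in C2C12 cells, 256 and 434, they were 482 and 620, 137 and 216, 314 and 507 and 73 and 359, and 418 and 599 with no fold limit. For day 6, 5 and 1, they were 108 and 38, 0 and 0, 48 and 12 and, with the libraries of day 6 alone, 1 and 0, and 5 and 0 with scaling by total counts. For day 0, 1 and 0, they were 38 and 50, 1 and 0, 15 and 17 and, with the libraries of day 0 alone, 2 and 0. With the libraries of day 3 alone, 84 of the 172 genes and 7 of the 40 stayed called. The filters change how many genes are tested, and the cause of the other changes was not tested.

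Without 1 library, the counts were 36 to 287 higher and 5 to 355 lower for the day 3 difference, 35 to 92 and 23 to 56 for PMs, 22 to 540 and 183 to 384 for C2C12 cells, 1 to 17 and 0 to 4 for day 6 and 0 to 47 and 0 to 30 for day 0. The highest of day 6 (17 and 4) came without C2C12 siTead1/4 replicate 2 and that of day 0 (47 and 30) without C2C12 siTead1/4 replicate 1. A lone sample is then taken to vary like the other groups.

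With the replicate number as a block, the counts were 261 and 66 for the day 3 difference, 303 and 177 for PMs, 295 and 523 for C2C12 cells, 28 and 6 for day 6 and 2 and 3 for day 0, but the numbers were not shown to pair the samples in C2C12 cells. Over the named genes and all alternatives, 2733 values kept direction and side of the threshold, 447 lost the call and 78 gained it. The other 60 changed sign, each for a value not called in the main fit, and no called value changed sign. Scaling moved the median difference of all genes from -0.01 to at most 0.04.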
